A study of Mus musculus with 6 samples.

Results

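Liver at week 7 of treatment was compared with liver at week 0 over every expressed gene, to describe which functions the changed genes have beyond Wnt, zonation and tumour markers. The comparison uses 4 of the 6 libraries of the series, 2 labelled week 0 and 2 labelled week 7, and 15368 of the 54446 genes in the count table had enough counts to be tested. Week 0 is the start of a treatment that the series names as MET/CAT and SB transposase, and week 7 is the latest time sampled. MET is the receptor of hepatocyte growth factor, and a transposase is an enzyme that moves pieces of DNA into a genome. CAT is not spelled out in the labels, which also do not say what the week 0 mice received, how the treatment was delivered, or the age and sex of the mice. The strain label of week 0 replicate 1 is a mixed FVB/N and C57BL/6 line, and the labels of the other libraries carry different numbers after C57BL/, so their background is unsure. The source is labelled liver cell, with no sort or tumour dissection named, so a library may mix cells that carry the transposed DNA with cells that do not. Nothing says that the 2 libraries of a week came from separate mice, and p-values here measure only the spread between these libraries, which may be technical.

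Hepatocytes make most plasma proteins. Each of these proteins is threaded into the endoplasmic reticulum (ER), given sugar chains, folded by chaperones such as BiP and by disulfide isomerases, and carried to the Golgi in coated vesicles. When folding demand exceeds capacity, the unfolded protein response raises the genes of this machinery, in part through the factors ATF6 and XBP1, which act on a short promoter motif called the ER stress response element. The adult liver also takes up and exports many small molecules, stores retinoids, modifies steroids and bile acids and answers circulating hormones, so genes of transport, vitamins and receptors are part of what its cells are known for.

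The week 0 libraries held 51758582 and 49353453 counts in total, and the week 7 libraries 53952382 and 51627088. Levels are given as CPM, counts per 1000000 after scaling each library by TMM. Pearson's r of log2(CPM + 1) across the tested genes was 0.9915 between the week 0 libraries, 0.9911 between the week 7 libraries and 0.9836 between the means of the weeks. Genes are not independent replicates, so these are descriptions.

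Week 7 differed from week 0 in 2123 genes at an adjusted p under 0.05 in edgeR's quasi-likelihood test, 13.8% of those tested. Of these, 1165 were higher (7.58% of genes tested) and 958 lower (6.23%), while the median log2 fold change of all genes was 0.002. Most changes were small: 375 of the higher genes and 144 of the lower genes passed a 2-fold change, and 522 and 580 were under 1.5-fold. Leaving out 1 library at a time lowered the number of calls to between 1298, without week 7 replicate 1, and 1856, and 864 genes (5.62%) were called with the same direction in all 6 such fits. These 864 are termed stable calls below, 470 of them higher (3.06%) and 394 lower (2.56%). The number of calls was also more than 1.5 times smaller without week 0 replicate 1 (1328) and without week 0 replicate 2 (1380).

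Hepatocyte markers were abundant in all 4 libraries, and markers of T cells, neutrophils, fat and muscle were near 0, each of these lists summing to under 10 CPM. The Kupffer cell list summed to 666 and 665 CPM at week 0 and to 514 and 509 at week 7, with 9 of 12 members lower beside 6.23% of all genes (5 to 8 with a library left out, the fewest without week 0 replicate 1). The stellate cell list summed to 288 and 285 against 187 and 203 CPM, with 6 of 10 members lower (5 to 6) and 1 higher. The sinusoidal endothelial list summed to 487 and 506 against 429 and 446 CPM, with 4 of 10 members lower, or 2 in each of the fits with a library left out. In bulk samples fewer cells of a type and less RNA per cell cannot be told apart.

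**Figure D1:**
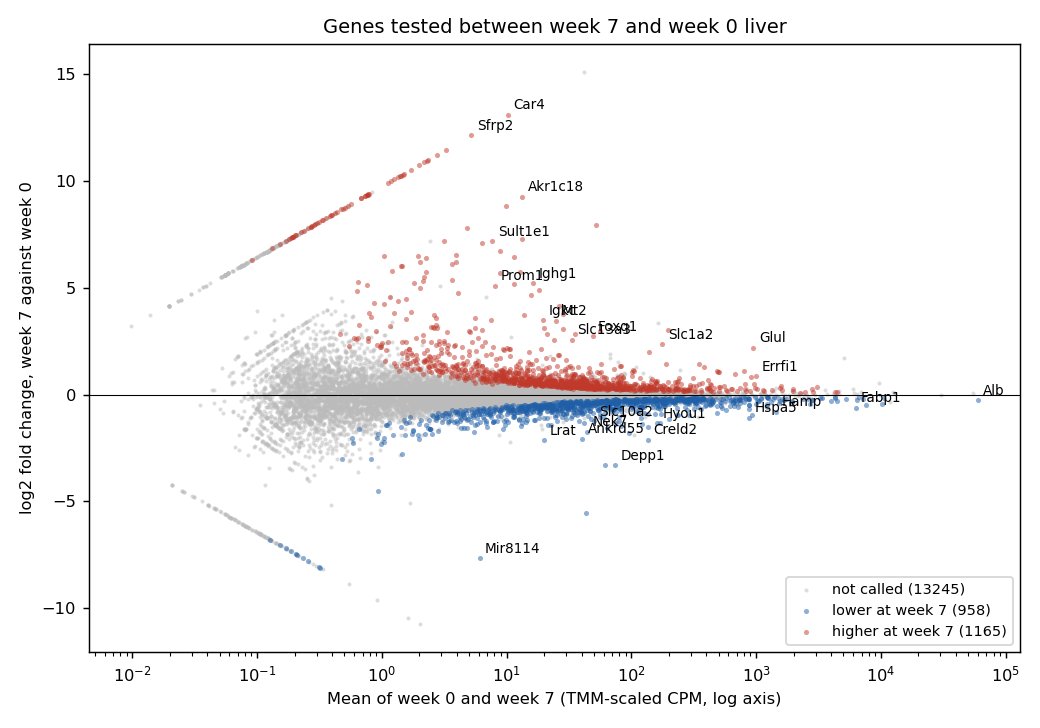
Each point is a tested gene, with its mean level over both weeks in CPM on a log axis and its log2 fold change on the vertical axis; 1165 genes were called higher (red) and 958 lower (blue). The red points reach far larger fold changes than the blue ones among genes of low level, and the abundant genes Alb and Fabp1 lie just below 0.

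Calls to a lower level were most frequent among abundant genes. Among the 118 genes above 1000 CPM, 36.4% were called lower and 13.6% higher, and from 100 to 1000 CPM the shares were 25.3% and 13.8%. The median log2 fold changes of these groups were small, at -0.029 and -0.068. Calls in both directions were rarest up to 1 CPM, with 1.81% higher and 0.555% lower. Between 1 and 5 CPM the order turned, with 6.1% higher and 2.66% lower. The genes called lower took 31.5% and 31.8% of all counts in the week 0 libraries and 26.2% and 26.1% in the week 7 libraries. Their summed level fell by 63806 CPM, and 10 genes for secreted or abundant liver proteins, led by albumin (Alb), Mup3, Fabp1 and Apoa2, held 39.6% of that. The genes called higher took 8.71% and 8.82% of counts at week 0 and 12.1% and 11.8% at week 7, a summed rise of 29880 CPM, of which the 10 leading genes held 19.5%. The direction of both sums was fixed in advance, because the genes were chosen on these same libraries. Alb alone went from 65490.0 to 54244 CPM, with log2 fold change -0.27, SE 0.03, adjusted p = 0.000727 in edgeR. Fabp1, the fatty acid binding protein of hepatocytes, stood at 7540.1 and 7670.4 CPM at week 0 and 4993 and 4911 CPM at week 7. Not every abundant secreted protein fell: the fibrinogen chain Fga rose from 2698 to 3426 CPM and fibronectin Fn1 from 795 to 1128 CPM, while Apoa1 was 12539 and 13045 against 13206 and 12766 CPM (adjusted p = 0.667). Members of the Mup, Serpina1 and Cyp families share near-identical sequence, and their single values are uncertain. Summed over 22 Mup genes, the level was 108300 and 102900 CPM at week 0 and 104300 and 115900 CPM at week 7. Unlike in Mup3, the weeks overlapped in this sum, and 1 Mup gene was called higher and 3 lower.

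Genes for folding in the ER were mostly lower. Of 32 tested ER chaperones and disulfide enzymes, 20 were lower (62.5%, beside 6.23% of all genes) and none was higher. Of the 32 log2 fold changes 31 were below 0, with a median of -0.531 beside 0.002 for all genes. With 1 library left out 17 to 18 were called lower, and 16 were stable calls. The list summed to 8510 and 8330 CPM at week 0 and 5820 and 5860 at week 7. Over the same libraries the hepatocyte marker list went from 95500 and 95300 to 83000 and 82700 CPM, with 3 of its 8 members lower and 2 higher. Alb made up most of that sum and alone changed by -11246 CPM. The median log2 fold change of the list was -0.041, with 4 members below 0 and 4 above. The part of that shift in the ER result was not tested.

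Hspa5, which encodes BiP, the main ER chaperone, stood at 1283 and 1103 CPM at week 0 and 569 and 561 CPM at week 7 (log2 fold change -1.08, SE 0.07, adjusted p = 0.000157 in edgeR). The week 7 libraries were close to each other and far below both week 0 libraries, which differed from each other by more. Creld2, a secreted ER stress protein with disulfide activity, had the largest fall of the list, at 222 and 219 CPM at week 0 and 55.6 and 46.8 CPM at week 7 (log2 fold change -2.11, SE 0.08, adjusted p = 1.13e-06). The BiP cofactor Dnajb9 stood at 207 and 195 CPM at week 0 and 67.8 and 74.6 CPM at week 7. In all 3 genes the weeks did not overlap, as was the case for 8613 of all tested genes (56.0%), a share that includes many genes that were not called. Most genes named here were chosen among those without overlap, so its recurrence is not added evidence. As the ratio of mean CPM, used for every fold here, Hyou1, the exchange factor of BiP, was 2.51-fold lower (adjusted p = 2.63e-06), Sdf2l1, a BiP partner, was 2.34-fold lower (adjusted p = 1.52e-05), and the disulfide isomerase Pdia4 was 1.93-fold lower (adjusted p = 2.08e-06). Hsp90b1, the ER form of HSP90, went from 848 to 572 CPM. Members with smaller changes belong to the same list: the lectin chaperone Canx was 370.0 and 354 against 289 and 291 CPM (adjusted p = 0.00142), and the glycoprotein sensor Uggt1 did not pass the test (106 and 103 against 93.3 and 100.5 CPM, adjusted p = 0.333).

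**Figure D2:**
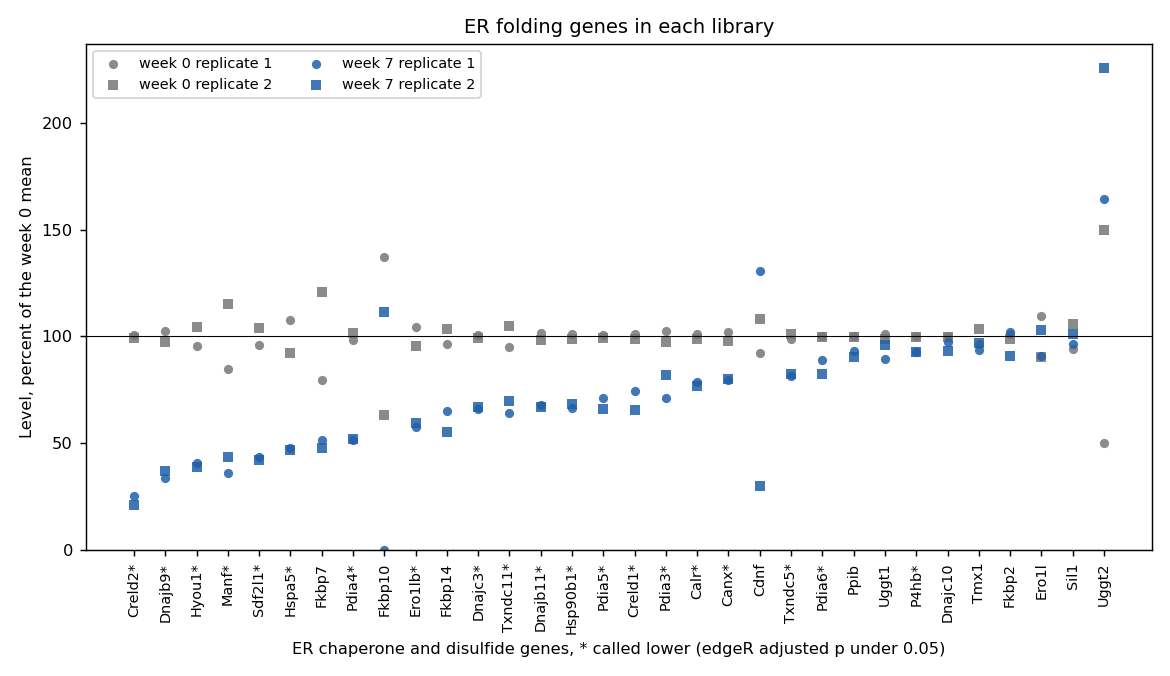
Each column is 1 of the 32 tested ER chaperone and disulfide genes, and each symbol is 1 library, as a percent of the gene's week 0 mean; grey marks week 0 and blue week 7, and an asterisk marks a gene called lower. The genes are ordered by fold change, and the blue symbols lie below the grey ones in all 20 called genes.

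The steps before and after folding also held more lower than higher genes. The lower shares were 48.0% in translocation and signal peptide processing and 20.5% in N-glycosylation. They were 30.8% in ER-associated degradation and 28.0% among COPII and COPI carriers, beside 6.23% of all genes. In the list of translocation and signal peptide processing, 12 of 25 genes were lower and 1 higher, with a median log2 fold change of -0.264, and 6 to 11 were called lower when 1 library was left out, the fewest without week 0 replicate 2 or week 7 replicate 1. Ssr3, a subunit of the translocon-associated complex, stood at 382 and 369.5 CPM at week 0 and 277 and 293 CPM at week 7, and Tram1, another translocon protein, at 210.4 and 211 CPM at week 0 and 156 and 161 CPM at week 7. Their adjusted p was 0.000442 and 0.000704 in edgeR. In N-glycosylation 8 of 39 genes were lower and 0 higher (6 to 8 with a library left out). Those named are enzymes that supply the sugar donors. Gfpt1, which commits fructose phosphate to the hexosamine pathway, was 2.03-fold lower, Uap1, which makes UDP-N-acetylglucosamine, 1.73-fold lower, and Gmppb, which makes GDP-mannose, 2.13-fold lower, with adjusted p of 0.000259, 0.00253 and 0.000363.

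In ER-associated degradation, which returns misfolded proteins to the proteasome, 8 of 26 genes were lower and 0 higher (5 to 7 with a library left out, the fewest without a week 7 library). Herpud1, a membrane organiser of that pathway, stood at 727 and 709.8 CPM at week 0 and 433 and 431 CPM at week 7, with log2 fold change -0.73, SE 0.03, adjusted p = 2.63e-06. The mannosidase-like Edem1 was 1.36-fold lower (adjusted p = 0.000244). Among genes of COPII and COPI carriers and their cargo receptors, 14 of 50 were lower and 0 higher (9 to 14 with a library left out, the fewest without week 0 replicate 2). They include the COPII coat genes Sec23b, 1.74-fold lower, and Sec24d, 1.59-fold lower, and the cargo receptors Tmed3, 2.22-fold lower, and Lman1, 1.20-fold lower. Coat genes of the COPI complex such as Copa and Copb1 did not pass the test, with log2 fold changes of -0.09 and 0.01; these were picked after their values were seen.

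Regulators of the response were called in part. Of 20 genes for stress transcription factors and the eIF2alpha branch, 4 were lower, beside 6.23% of all genes, and none higher. Only those that were stable calls are named from these. Eif2ak3, the ER stress kinase PERK, stood at 38.5 and 37.2 CPM at week 0 and 18.1 and 18.2 CPM at week 7 (log2 fold change -1.06, SE 0.10, adjusted p = 0.000167), and Creb3l2, a membrane-bound transcription factor of secretory cells, at 36.04 and 39.3 CPM at week 0 and 20.3 and 19.97 CPM at week 7. Bbc3, a death gene of the BCL2 family, went from 6.73 to 3.06 CPM. Atf4, Atf6 and Ern1, which encode other regulators and were picked after their values were seen, did not pass the test. Their log2 fold changes were -0.19, -0.04 and -0.06. Not every regulator is given, and the gene of XBP1 is not among those named. Of the 22 aminoacyl-tRNA synthetases, which the PERK branch can raise, 2 were higher (Gars, 1.47-fold, and Aars) and 1 lower (Tars, 1.49-fold), shares close to those of all genes.

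Promoters of the fallen ER genes can be read for the motif itself. The sequences are RefSeq's (GRCm38.p6), 250 bases before each annotated start. With 1 chromosome left out of the search, entries were kept for 11099 of 15358 tested symbols. The ER stress response element was searched as CCAAT, any 9 bases and CCACG on both strands, and 19 genes (0.171%) held a match. Of these 19, 10 were called lower, 1 higher and 8 neither, and 17 had a log2 fold change below 0, with a median of -0.568. Of the 11080 genes without a match 6.63% were lower, beside 52.6% of those with one. All 10 lower genes with a match belong to lists described above: 7 to ER chaperones, 1 to N-glycosylation and 2 to ER-associated degradation. No matched gene outside these lists was called lower, so the contrast is not separate from the counts of those lists. Among the 17 fallen ER chaperone genes with a promoter entry, 7 held a match (41.2%), and no other member of the list did (7 of 26, 26.9%). The share was 1.34% of all 745 lower genes and 0.114% of all 878 higher genes with an entry. The matches of the 10 lower genes follow in the orientation of the search, with the fixed bases in capitals and the 9 free bases in lower case:
Hspa5: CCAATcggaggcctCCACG
Hsp90b1, farther site: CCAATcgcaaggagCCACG
Hsp90b1, nearer site: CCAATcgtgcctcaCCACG
Calr: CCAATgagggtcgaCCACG
Canx: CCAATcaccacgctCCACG
Dnajc3: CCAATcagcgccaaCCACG
Pdia6: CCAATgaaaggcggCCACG
Creld2 and Alg12: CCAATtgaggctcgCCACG
Derl3: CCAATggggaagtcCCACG
Syvn1: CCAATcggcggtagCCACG
The free bases differ from site to site, apart from Creld2 and Alg12, which share 1 match.

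That pair shares a single stretch of DNA. Creld2 and Alg12, a mannosyltransferase of N-glycosylation, lie head to head, with 327 bases between their RefSeq starts, and 1 match serves both windows, ending 108 bases before the start of Creld2 and 202 before that of Alg12. Creld2 fell 4.30-fold and Alg12 went from 16.6 to 9.92 CPM (adjusted p = 0.00992, and 0.0679 without week 7 replicate 1). Hspa5 carries 1 full match, 47 bases before its start, and Hsp90b1 carries 2, at 194 and 89 bases. The windows of these 3 chaperone genes are given 5′ to 3′ on the strand of the gene, with each 19-base match in capitals:
Hspa5, chr2:34771840-34772089, plus strand: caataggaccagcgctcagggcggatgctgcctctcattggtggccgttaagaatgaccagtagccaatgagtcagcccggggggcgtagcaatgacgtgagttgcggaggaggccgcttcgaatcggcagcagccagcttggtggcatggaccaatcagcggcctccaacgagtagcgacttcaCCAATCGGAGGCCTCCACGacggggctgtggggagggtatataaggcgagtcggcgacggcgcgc
Hsp90b1, chr10:86705445-86705694, minus strand: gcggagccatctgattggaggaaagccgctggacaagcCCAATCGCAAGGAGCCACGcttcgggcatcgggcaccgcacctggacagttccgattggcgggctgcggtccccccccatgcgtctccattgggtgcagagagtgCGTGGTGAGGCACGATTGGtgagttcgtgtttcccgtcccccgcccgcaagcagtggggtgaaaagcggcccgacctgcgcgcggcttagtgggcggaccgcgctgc
Creld2, chr15:88819396-88819645, plus strand: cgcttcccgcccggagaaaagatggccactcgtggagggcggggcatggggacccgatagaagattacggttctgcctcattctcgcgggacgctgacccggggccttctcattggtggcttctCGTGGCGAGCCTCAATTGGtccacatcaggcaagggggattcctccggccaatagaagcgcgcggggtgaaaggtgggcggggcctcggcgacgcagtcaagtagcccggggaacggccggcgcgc
Some calls in this set lost their adjusted p under 0.05, with the fold nearly kept, when a library was left out. Derl3, of the degradation channel, was below 5 CPM and was not called when any 1 of the 4 libraries was left out (adjusted p from 0.0973 to 0.15, log2 fold change from -1.13 to -0.98). Syvn1, the ubiquitin ligase of that channel, stood at 184 and 115 CPM at week 0 and 45.2 and 42.01 CPM at week 7, with week 0 replicate 1 well above replicate 2, and its adjusted p was 0.168 without week 7 replicate 1, 0.169 without replicate 2, and 0.0738 and 0.0749 without the week 2 replicates (log2 fold change from -1.83 to -1.73). Pdia6, another disulfide isomerase, had an adjusted p of 0.0134, and of 0.0735, 0.0596 and 0.0619 without week 0 replicate 1, week 0 replicate 2 and week 7 replicate 2. The higher gene with a match was Acnat2, an acyl-amino acid transferase of the peroxisome, from 10.2 to 18.6 CPM. Alg12, Derl3, Syvn1 and Acnat2 are named here because their promoters held the match. The related letters TGACGTGG were found in 99 genes (0.892%) and in 0.805% of the lower ones, with 7.69% of the ER chaperone list, 10.0% of the degradation list and 10.9% of the COPII and COPI list. The same windows were also searched for a variant of the element, ERSE-II, and for the heat shock element, HSE. ERSE-II was found in 7 genes (0.0631%), with 1 among the lower and 0 among the higher ones. HSE was found in 51 genes (0.46%), with 5 among the lower and 1 among the higher ones. No gene of the ER chaperone list held either. Of the heat shock family described next, 2 of 14 lower genes with a promoter entry held HSE (14.3%). A match is a description of letters in a window, not a measured site.

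Chaperones outside the ER were also lower more often than the 6.23% of all genes. A family of 22 heat shock proteins and their helpers, chosen after values of these genes were seen, had 17 members lower and 0 higher, with a median log2 fold change of -0.48 (14 to 16 lower with a library left out). Its summed level was 5526 and 5559 CPM at week 0 and 3865 and 3983 at week 7. Hspa8, the constitutive cytosolic HSP70, stood at 1108 and 1066 CPM at week 0 and 691 and 669 CPM at week 7 (log2 fold change -0.68, SE 0.03, adjusted p = 4.51e-06 in edgeR). Hsph1, its exchange factor, stood at 178 and 179.9 CPM at week 0 and 95.9 and 92.9 CPM at week 7, and the HSP40 gene Dnaja1 at 408 and 406 CPM at week 0 and 263 and 291 CPM at week 7. The week 7 libraries were below both week 0 libraries in all 3 genes. Hsp90ab1, the constitutive HSP90, was 1.35-fold lower (adjusted p = 8.72e-05), and its helpers Stip1 and Chordc1 were 1.57-fold and 1.68-fold lower. The mitochondrial pair Hspd1 and Hspe1 was 1.36-fold and 1.35-fold lower. The stress-inducible genes Hspa1a and Hspa1b stood at 36.3 and 38.7 against 39.9 and 42.9 CPM and 105 and 107 against 91.03 and 95.4 CPM and did not pass the test (adjusted p = 0.427 and 0.129). Hsf1, the factor that induces them, had 13.3 and 12.7 against 13.2 and 13.1 CPM.

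Genes of the ribosome and the respiratory chain shifted down by little. Of all genes tested 6.23% were called lower. Of 80 cytosolic ribosomal protein genes, 31 were lower and 0 higher, with a median log2 fold change of -0.143, and of 78 respiratory chain subunits 20 were lower and 0 higher, with a median of -0.142; both families were chosen after values were seen. Without 1 library the ribosomal count ran from 13, without week 0 replicate 2, to 23, and the respiratory count from 9, without week 0 replicate 2 or week 7 replicate 2, to 19. With libraries scaled to their total counts only, the 2 counts were 19 and 14 and the medians -0.107. Mitochondrial ribosome and import genes had a median of -0.107, with 73 of 102 values below 0, but 5 were called lower and 3 higher, shares below those of all genes (1 to 4 and 0 to 3 with a library left out, the fewest lower without week 0 replicate 1). Of 53 genes of ribosome assembly and RNA polymerase I, 7 were lower and 1 higher (2 to 8 lower with a library left out, the fewest without week 0 replicate 2 or week 7 replicate 2), including the nucleolar GTPase genes Gtpbp4, 1.54-fold lower, and Gnl3, from 25.2 to 17.02 CPM.

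Gene length moved with direction. Protein coding genes with at least 5 CPM were divided into 5 equal groups by summed exon length. The group with the shortest exons (up to 2533 bases) had a median log2 fold change of -0.08, with 7.41% higher and 15.7% lower. The group with the longest exons (over 7860 bases) had a median of 0.081, with 13.9% higher and 6.13% lower, and the groups between them lay in order. Between replicates the same medians ran from -0.006 to 0.024 at week 0 and from 0.021 to -0.015 at week 7. The median exon length was 1806 bases in ribosomal protein genes, 3480 in the ER chaperone list and 6755 in the chromatin list described next, and the part of length in their shifts was not tested.

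**Figure D3:**
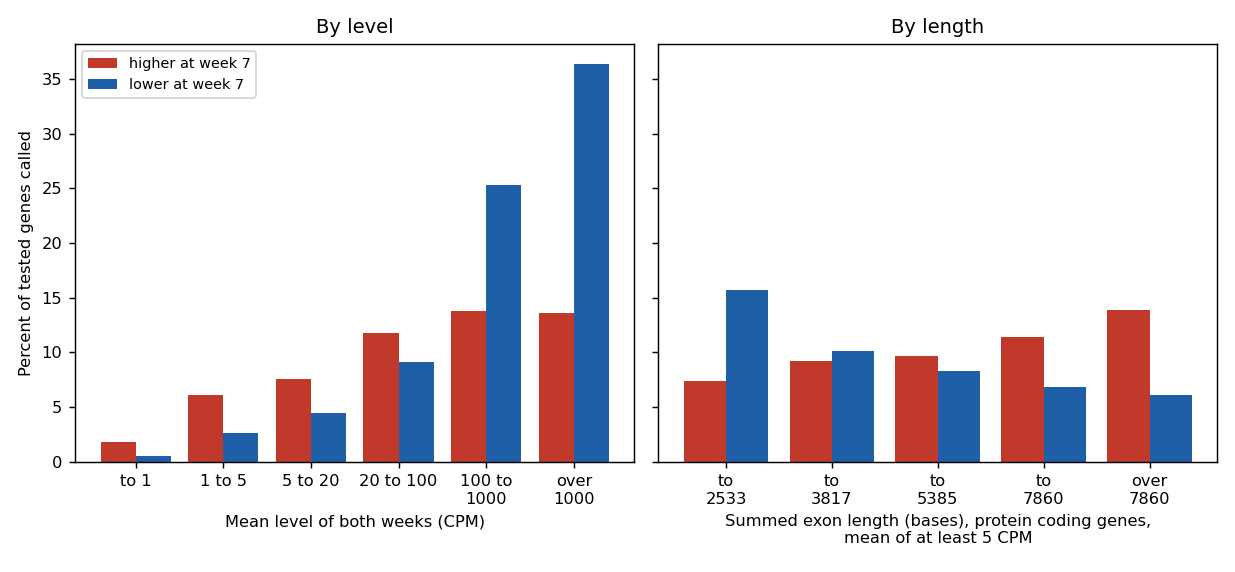
Bars give the percent of tested genes called higher (red) or lower (blue) at week 7, by mean level in CPM (left) and by summed exon length in bases for protein coding genes of at least 5 CPM (right). The share called lower climbs with level to 36.4% above 1000 CPM and drops with length from 15.7% to 6.13%, while the share called higher climbs with length from 7.41% to 13.9%.

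Genes for chromatin enzymes were more often higher than lower. The shares were 19.2% and 4.11%, beside 7.58% and 6.23% of all genes. Of 73 tested, 14 were higher and 3 lower, with a median log2 fold change of 0.176; 6 to 13 were higher with a library left out, the fewest without week 0 replicate 1 or week 7 replicate 2, and 6 were stable calls. Kdm2a, a histone H3 lysine demethylase that binds unmethylated CpG islands, stood at 21.6 and 21.8 CPM at week 0 and 53.2 and 52.8 CPM at week 7 (log2 fold change 1.29, SE 0.08, adjusted p = 1.69e-05 in edgeR). The week 7 values were more than 2-fold above both week 0 values, the largest rise among the stable calls of the list. Dnmt3a, a methyltransferase that sets DNA methylation, stood at 13.2 and 12.1 CPM at week 0 and 21.5 and 21.98 CPM at week 7, and the histone methyltransferase Kmt2d at 24.1 and 23.8 CPM at week 0 and 39.1 and 34.9 CPM at week 7. The remodeller Chd4 was 1.42-fold higher (adjusted p = 0.000844), and Arid5b, a partner of a histone demethylase, 1.75-fold higher (adjusted p = 0.000659). H2afx, the histone variant that marks DNA breaks when phosphorylated, was 1.75-fold lower. In the splicing and RNA-binding list 11.5% were higher, beside 7.58% of all genes. Among 52 splicing and RNA-binding genes 6 were higher and none lower (1 to 5 higher with a library left out, the fewest without week 0 replicate 2).

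Developmental transcription factors had 16 of 80 higher and 2 lower (10 to 16 higher with a library left out, the fewest without week 0 replicate 2). Foxq1, a forkhead factor, stood at 12.3 and 13.5 CPM at week 0 and 84.5 and 85.7 CPM at week 7, 6.62-fold higher (log2 fold change 2.73, SE 0.10, adjusted p = 6.60e-07). Hhex, a homeobox factor needed for the liver bud, stood at 61.6 and 66.7 CPM at week 0 and 143 and 141 CPM at week 7. The pioneer factors Foxa1 and Foxa2, which open chromatin at liver genes, rose from 16.3 to 32.8 CPM and from 18.5 to 39.9 CPM. All 4 had week 7 libraries close to each other. That these lay above both week 0 libraries was a condition for naming the genes. Prox1, of hepatoblast growth, was 1.38-fold higher and Klf13 went from 69.97 to 104 CPM (adjusted p = 0.00148 and 0.000328). Hnf4a, the central factor of hepatocyte identity, stood at 841 and 845 against 800.4 and 769 CPM and did not pass the test (adjusted p = 0.0693). The zinc finger genes, 401 in number, had 11 higher and 14 lower, 2.74% and 3.49%, both below the shares of all genes (7 to 11 and 3 to 14 with a library left out, the fewest higher without week 7 replicate 1 and the fewest lower without week 0 replicate 1). Among them Zbtb16 was 1.61-fold higher and Zfp445, which guards imprints, 1.47-fold lower.

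The imprinted Dlk1 to Mirg region was near 0 at week 0 and low but measurable at week 7. It holds a paternally expressed gene, Dlk1, a surface and secreted protein of fetal liver, and maternally expressed non-coding RNAs, Meg3, Rian and Mirg. RefSeq's GRCm38.p6 annotation lists 89 genes from Dlk1 to Mirg, of which 79 are microRNA or snoRNA genes, none of them tested here in poly-A libraries. The 4 that were tested were all called higher. Dlk1 had 0 counts in both week 0 libraries and 7.35 and 5.81 CPM at week 7, which is at least 26.9-fold higher against a floor of 12 deposited counts in each week 0 library. Meg3 stood at 0.0801 and 0.124 CPM at week 0 and 7.30 and 7.00 CPM at week 7 (adjusted p = 8.97e-06), and Rian at 0.421 and 0.809 CPM at week 0 and 21.4 and 23.6 CPM at week 7 (adjusted p = 9.47e-06). In all 4 libraries Rian was the highest of these RNAs. Mirg was under 1 CPM and was not called with any 1 library left out (adjusted p from 0.0729 to 0.157). H19, an imprinted RNA of another chromosome, was also higher (0.0801 and 0.104 against 2.54 and 1.94 CPM, adjusted p = 0.0011); Mirg and H19 were named after their values were seen.

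Solute carriers were more often higher than lower, where all genes had 7.58% higher and 6.23% lower. Of 258 tested, 46 were higher (17.8%) and 22 lower (8.53%), and 24 to 39 and 11 to 20 when 1 library was left out, the fewest higher without week 7 replicate 1. Slc1a2, a glutamate importer, stood at 59.5 and 56.7 CPM at week 0 and 292 and 302 CPM at week 7 (log2 fold change 2.35, SE 0.05, adjusted p = 2.57e-08 in edgeR). Slc13a3, a sodium-coupled carrier of dicarboxylates, stood at 9.22 and 10.1 CPM at week 0 and 58.2 and 56.02 CPM at week 7, and Slc16a10, an exporter of aromatic amino acids, at 69.3 and 63.8 CPM at week 0 and 138 and 146 CPM at week 7. All 3 rose in both week 7 libraries, which was a condition for naming them, Slc13a3 by 5.92-fold. The cationic amino acid carrier Slc7a2 was 1.74-fold higher and the mitochondrial carrier Slc25a30 2.74-fold higher (adjusted p = 1.03e-05 and 6.68e-06). Slc10a2, the sodium-coupled bile acid carrier, was 2.38-fold lower (70.1 and 69.97 against 28.6 and 30.3 CPM), the organic anion carrier Slc22a7 2.11-fold lower (161 and 164 against 78.7 and 75.3 CPM), and the liver mitochondrial carrier Slc25a47 1.29-fold lower. P-type and V-type ATPases had 7 of 65 higher (10.8%) and 6 lower (9.23%), near the shares of all genes. Aquaporins and connexins had 1 of 12 higher (8.33%) and 2 lower (16.7%). Atp1b1, a beta subunit of the sodium pump, was 1.49-fold higher, whereas the calcium pump of the ER, Atp2a2, stood at 219 and 231 CPM at week 0 and 122 and 118 CPM at week 7 (log2 fold change -0.91, SE 0.06, adjusted p = 1.98e-05).

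Of the retinoid and vitamin genes, 12 of 33 were lower and 5 higher (7 to 12, the fewest without week 0 replicate 1, and 3 to 4 with a library left out). The shares were 36.4% lower and 15.2% higher, beside 6.23% and 7.58% of all genes. Lrat, which esterifies retinol for storage, stood at 32.9 and 31.9 CPM at week 0 and 7.85 and 6.96 CPM at week 7 (log2 fold change -2.13, SE 0.12, adjusted p = 1.00e-05 in edgeR). It is also a stellate cell marker, and the summed stellate list fell over the same libraries, with its part not tested. Rdh16, a retinol dehydrogenase, stood at 75.3 and 70.8 CPM at week 0 and 40.5 and 37.5 CPM at week 7, and Cyp26a1, which breaks down retinoic acid, at 97.5 and 101 CPM at week 0 and 63.9 and 61.8 CPM at week 7. Both were lower without overlap, which was a condition for naming them. Bco1, which cleaves beta-carotene to retinal, stood at 8.19 and 8.87 CPM at week 0 and 21.6 and 19.9 CPM at week 7, 2.43-fold higher. Gulo, the last enzyme of vitamin C synthesis in mice, stood at 327 and 327 CPM at week 0 and 698 and 680.2 CPM at week 7 (log2 fold change 1.07, SE 0.03, adjusted p = 3.30e-07). Plasma carriers changed little: the retinol carrier Rbp4 was 1.11-fold lower and the vitamin D carrier Gc 1.10-fold lower.

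Steroid and bile steroid enzymes had 8 of 30 lower and 3 higher, or 7 to 8 and 3 to 4 when 1 library was left out. Akr1d1, the 5-beta reductase of bile acid synthesis, stood at 147 and 135 CPM at week 0 and 92.03 and 97.9 CPM at week 7, and Cyp7b1, an oxysterol hydroxylase, at 466 and 448 CPM at week 0 and 309 and 322 CPM at week 7. Srd5a1, the 5-alpha reductase, was 1.39-fold lower and Hsd3b5 1.34-fold lower. Of the list, 26.7% were lower and 10.0% higher, beside 6.23% and 7.58% of all genes. Against that direction Akr1c18, a 20-alpha reductase of progesterone, went from 0.0415 to 26.7 CPM and the estrogen sulfotransferase Sult1e1 from 0.102 to 15.3 CPM (adjusted p = 8.97e-06 and 1.88e-05). Both were close to 0 at week 0, below the floor of 0.245 CPM, so no fold is given for them. Members of the Akr1c and Sult families share sequence, and their single values are uncertain.

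Genes of lipid handling moved both ways. Of lipases, acyl-CoA thioesterases and synthetases 18.6% were higher and 18.6% lower. In the peroxisome list the shares were 12.2% and 20.4%, beside 7.58% and 6.23% of all genes. Lipases, acyl-CoA thioesterases and synthetases had 8 of 43 higher and 8 lower (6 to 8 and 5 to 8 with a library left out). Lpl, the lipoprotein lipase, stood at 8.29 and 8.98 CPM at week 0 and 21.8 and 25.02 CPM at week 7, and Lipg, the endothelial lipase, at 12.2 and 11.9 CPM at week 0 and 27.3 and 25.99 CPM at week 7. Pnpla2, the lipase that opens triglyceride stores, was 1.71-fold higher, and G0s2, its inhibitor, was 2.51-fold lower (59.4 and 59.3 against 23.8 and 23.5 CPM). Acss2, which makes cytosolic acetyl-CoA from acetate, was 1.69-fold lower. In the peroxisome list 10 of 49 genes were lower and 6 higher (8 to 10 and 4 to 6). Among the abundant enzymes catalase, Cat, stood at 3079.9 and 3062 CPM at week 0 and 2538 and 2620.4 CPM at week 7. Abcd2, a fatty acid importer of the peroxisome, went the other way, 2.17-fold higher, as did the racemase Amacr, from 156 to 235 CPM. All 5 calls among 31 sphingolipid and ceramide enzymes were higher, but 0 to 4 were called with 1 library left out and none was a stable call. Odc1 and Srm, which make polyamines, were 1.33-fold and 1.53-fold lower. Nampt, which salvages nicotinamide, was 1.49-fold lower, while Nnmt, which methylates it, was 1.99-fold higher (adjusted p = 0.000733 and 0.00023).

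The list of G protein-coupled receptors was built by symbol and also took in 7 genes that are no receptors, namely Htra1 to Htra4, Agtrap, Gprasp1 and Gprin3, none of which was called. Of its 95 tested genes 20 were higher and 4 lower, or 20 and 4 of the 88 others (10 to 18 and 2 to 7 with a library left out, the fewest higher without week 7 replicate 1). Avpr1a, the vasopressin receptor of liver, stood at 10.04 and 9.45 CPM at week 0 and 29.6 and 34.1 CPM at week 7 (log2 fold change 1.71, SE 0.11, adjusted p = 2.80e-05), and Agtr1a, an angiotensin II receptor, at 17.9 and 17.3 CPM at week 0 and 34.3 and 32.98 CPM at week 7. Adgrv1, a very large adhesion receptor, stood at 10.2 and 12.5 CPM at week 0 and 40.1 and 40.8 CPM at week 7. The purine receptor P2ry2 and the lipid receptor S1pr3 were below 5 CPM at week 0 and were 2.58-fold and 4.13-fold higher. Adgre1, the F4/80 antigen of Kupffer cells, was 1.80-fold lower. Of the 95 genes matched by symbol 21.1% were higher and 4.21% lower, beside 7.58% and 6.23% of all genes. For cytokine receptors and SOCS genes the shares were 13.7% and 5.88%. Among 51 cytokine receptors and SOCS genes 7 were higher and 3 lower (4 to 7 and 1 to 3 with a library left out, the fewest higher without week 7 replicate 2 and the fewest lower without week 7 replicate 1), with Socs3, an inhibitor of cytokine signalling, at 3.89 and 3.92 CPM at week 0 and 17.3 and 17.3 CPM at week 7 (log2 fold change 2.15, SE 0.14, adjusted p = 2.41e-05), and the interleukin 1 receptor Il1r1 1.51-fold higher.

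Genes of the growth hormone and insulin-like growth factor axis moved both ways. Igf1, the main circulating growth factor made by liver, stood at 819.7 and 755 CPM at week 0 and 521 and 553 CPM at week 7 (log2 fold change -0.55, SE 0.05, adjusted p = 0.000124). The growth hormone receptor gene Ghr, of the cytokine receptor list, stood at 741 and 733 CPM at week 0 and 561 and 592 CPM at week 7, and Igfals, which carries IGF1 in plasma, was 1.21-fold lower. Igfbp1, a binding protein that holds IGF1 inactive, stood at 12.2 and 10.4 CPM at week 0 and 38.6 and 44.3 CPM at week 7, and Igf2r, which clears IGF2, at 34.00 and 33.5 CPM at week 0 and 72.4 and 70.7 CPM at week 7. Both were higher in each week 7 library than in either week 0 library, which was a condition for naming them. In all, 4 of 20 genes of this list were higher and 4 lower (3 to 5 and 3 to 4 with a library left out).

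In the list of TGF-beta, activin and bone morphogenetic protein (BMP) genes the calls were more often lower, while the median log2 fold change was 0.067. The list had 11 of 55 members lower and 6 higher (6 to 10, the fewest without week 7 replicate 1, and 3 to 7 with a library left out). Among ligands, Bmp2 stood at 33.5 and 36.4 CPM at week 0 and 20.1 and 21.7 CPM at week 7 and Gdf2, which encodes BMP9, at 15.8 and 15.8 CPM at week 0 and 9.67 and 8.23 CPM at week 7. Smad9, a signal carrier of BMP receptors, went from 34.3 to 18.9 CPM (adjusted p = 0.000621). The BMP target genes Id1 and Id3 were 2.08-fold and 2.08-fold lower, Id3 at 76.1 and 76.2 CPM at week 0 and 37.3 and 35.99 CPM at week 7 (log2 fold change -1.05, SE 0.07, adjusted p = 2.88e-05). The inhibitory Smad7 was 2.19-fold lower. Hamp, which encodes the iron hormone hepcidin and is a known BMP target outside the list, stood at 1829 and 1837 CPM at week 0 and 1057 and 1067 CPM at week 7 (log2 fold change -0.79, SE 0.03, adjusted p = 4.99e-07). Higher members included Tgfbr2, a TGF-beta receptor, 1.41-fold higher, and Smurf1, a ubiquitin ligase for SMAD proteins, 1.72-fold higher. Bmp2 is also a marker of sinusoidal endothelial cells and Gdf2 a product of non-parenchymal cells. The endothelial, stellate and Kupffer lists were lower over the same libraries, with sums of 429 to 506, 187 to 288 and 509 to 666 CPM, and their part in this result was not tested.

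**Figure D4:**
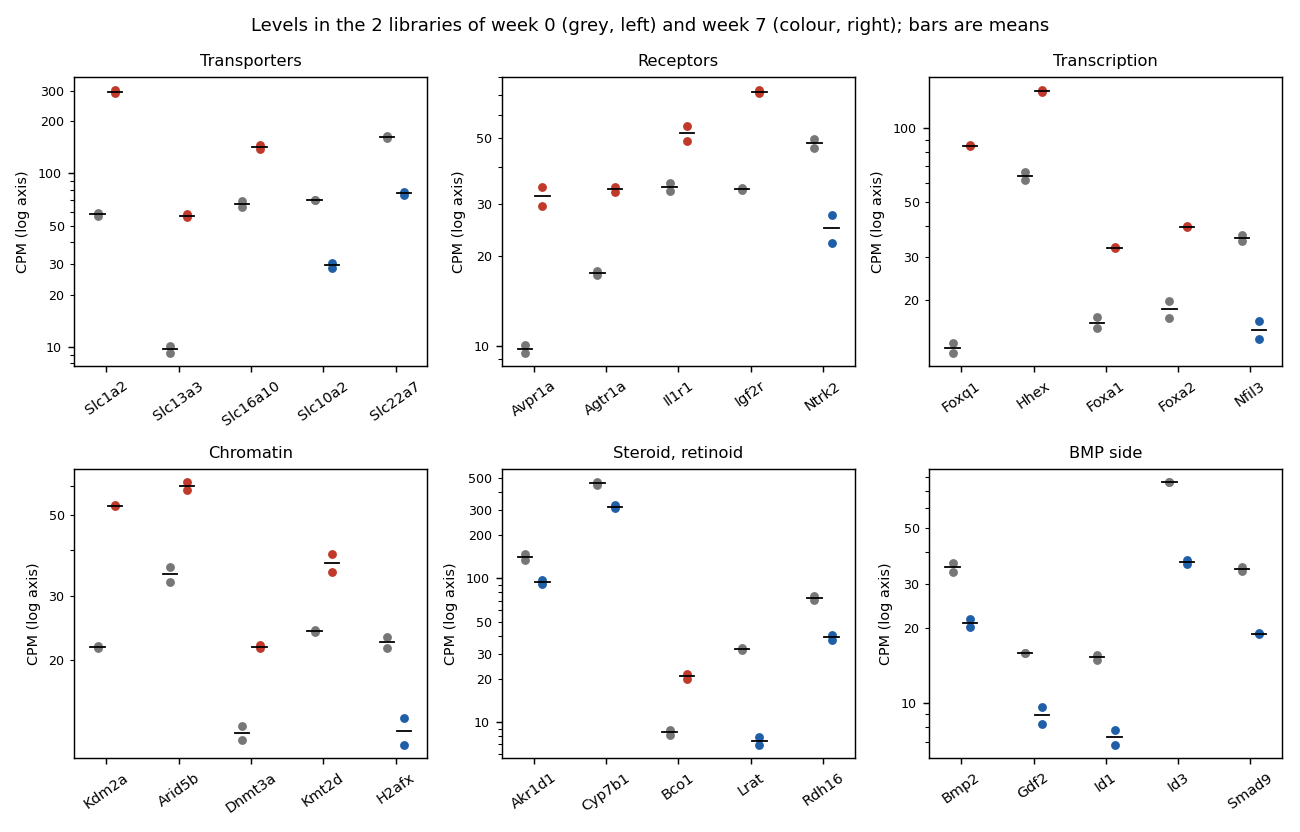
Levels in CPM on log axes for 30 genes of 6 groups, with 1 point for each library, grey for week 0 and red (higher) or blue (lower) for week 7, and a bar at each mean. Weeks that did not overlap were a condition for choosing the 30 genes, and 56.0% of all tested genes met it. The points of a week lie close to each other beside the distance between weeks in genes such as Foxq1, Slc1a2 and Lrat.

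Cell shape and adhesion genes were mostly higher where called. Of 63 tubulins, kinesins and keratins 12 were higher and 2 lower (8 to 12 and 1 to 2 with a library left out), and of 59 cadherins, protocadherins, claudins and desmosome genes 12 were higher and 3 lower (4 to 12 and 1 to 2, the fewest higher without week 7 replicate 1). Cdh1, the epithelial cadherin, stood at 19.7 and 22.97 CPM at week 0 and 40.2 and 39.8 CPM at week 7 (log2 fold change 0.91, SE 0.11, adjusted p = 0.000716). Tuba8, an alpha tubulin, stood at 0.0801 and 0 CPM at week 0 and 6.28 and 6.22 CPM at week 7, and Stmn1, which destabilises microtubules, was 2.24-fold higher. Actin and myosin genes had 5 of 75 higher and 1 lower, shares below those of all genes (3 to 7 and 1 to 2 with a library left out). Of 53 lysosome genes 8 were higher and 3 lower (5 to 8, the fewest without week 0 replicate 1 or week 7 replicate 1, and 1 to 2), including Npc1, a cholesterol exporter of that organelle, at 131 and 126 CPM at week 0 and 185 and 186 CPM at week 7. The 296 ubiquitin ligases and proteases had 5.74% higher and 2.36% lower, both below the background of 7.58% and 6.23%, and 8 to 17 higher and 1 to 6 lower genes with a library left out, the fewest without week 0 replicate 2.

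**Figure D5:**
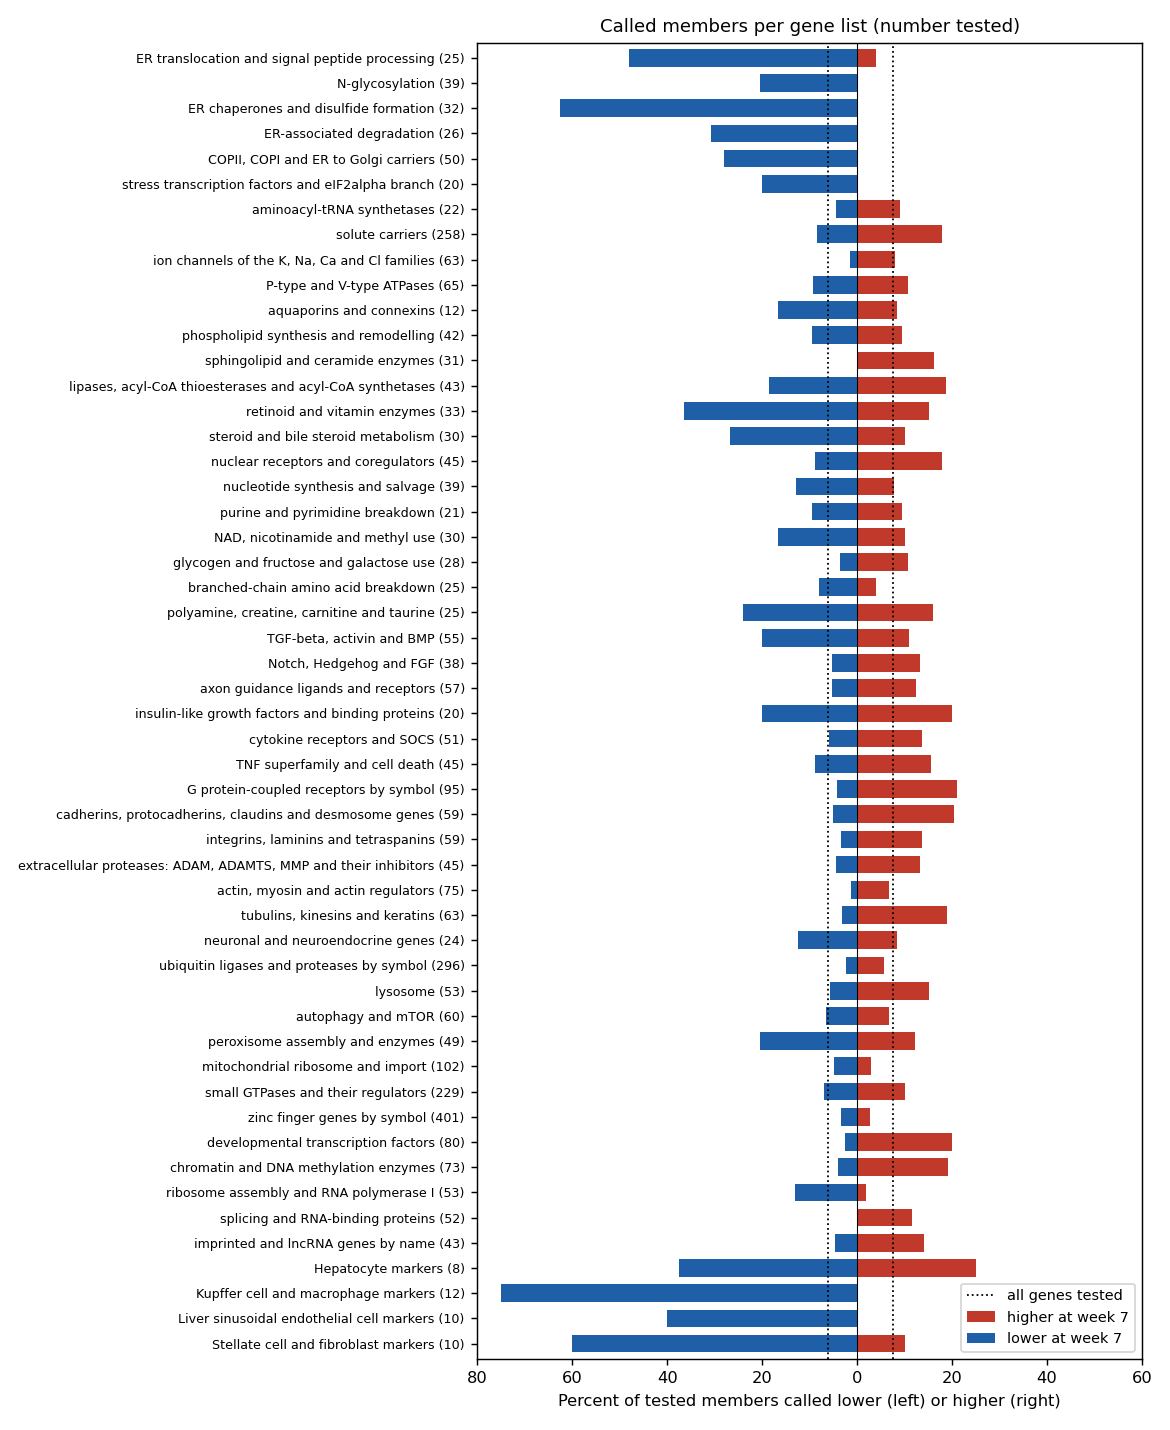
Bars give, for each gene list, the percent of its tested members called lower (blue, to the left) or higher (red, to the right) at week 7, with the number tested in brackets; dotted lines mark the 6.23% lower and 7.58% higher of all genes. The first lists, those of the secretory pathway, extend to the left, up to 62.5% for ER chaperones and except the aminoacyl-tRNA synthetases, while solute carriers, G protein-coupled receptors, developmental factors and chromatin enzymes extend farther to the right than to the left.

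Several of the largest changes belong to none of these lists. Depp1, a gene induced by FOXO factors, had the largest fall among stable calls of protein coding genes above 5 CPM, at 137 and 132 CPM at week 0 and 10.4 and 16.5 CPM at week 7 (log2 fold change -3.31, SE 0.24, adjusted p = 0.00159). Ankrd55 stood at 62.1 and 68.3 CPM at week 0 and 16.4 and 14.7 CPM at week 7 and the mitotic kinase gene Nek7 at 68.02 and 67.9 CPM at week 0 and 21.3 and 19.8 CPM at week 7. In these 3 genes both week 7 libraries were far below both week 0 libraries, where the lack of overlap was a condition for naming them. Nfil3, a transcription repressor of the daily clock, was 2.36-fold lower and Nrep 2.93-fold lower (adjusted p = 0.000155 and 1.75e-06). Mcm6, a subunit of the replication helicase, and Ccne2, cyclin E2, were 3.03-fold and 2.92-fold lower. On the rising side, the metal-binding gene Mt2 stood at 4.19 and 4.17 CPM at week 0 and 47.2 and 44.4 CPM at week 7 (log2 fold change 3.45, SE 0.07, adjusted p = 1.73e-08), Gadd45g, a growth arrest gene, at 4.75 and 7.22 CPM at week 0 and 50.3 and 50.1 CPM at week 7, and Phlda1 at 40.97 and 46.5 CPM at week 0 and 362 and 344 CPM at week 7. Oat, ornithine aminotransferase, and Apoa4, an apolipoprotein, were 2.18-fold and 2.48-fold higher from levels above 200 CPM.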

How the data were processed

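Poly-A RNA of 6 liver samples was sequenced in read pairs, per the labels' protocols, with a kit that does not mark strand. The values are estimated counts per gene, deposited by the authors as 1 table of whole numbers with Ensembl gene identifiers; of values from 4 to 43 in a library, 68.3 to 69.6% were a multiple of 4 or 1 above one, where evenly spread numbers would give 50.0%. The submitters' processing notes name Bowtie 0.12.2 and mm8. Which program counted the reads, and on which annotation, is not given in the sources used here. Many identifiers are later than that build, so no gene coordinates are printed from the counts. Symbols came from GENCODE M21 for 54409 of 54446 identifiers. Counts were filtered with filterByExpr, scaled by TMM and tested with edgeR 4.0.16 (R 4.3.3) by the robust quasi-likelihood test on all 6 libraries, week 7 minus week 0, with 3 residual degrees of freedom; p-values were adjusted by Benjamini-Hochberg over 15368 genes, and under 0.05 counts as a call. On simulated data for week 7 against week 0 (14702 genes), it recovered 30 of 49 genes raised 2-fold and 22 of 50 lowered to 0.5 of their level. It recovered 39 of 50 raised 4-fold and 42 of 49 lowered to 0.25, and called 13 of 14504 unchanged genes. These 13 false calls are to be read beside the recovered genes. Far fewer genes were changed in the simulation than were called in the data.

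Genes named were stable calls of at least 5 CPM whose weeks did not overlap: the 30 largest fold changes and 15 largest differences in each direction, up to 6 members of each list and direction, genes at 0 in a week, and a fixed panel. Others were chosen after their values were seen: the heat shock, ribosomal, respiratory and immunoglobulin families, genes tied to a promoter match, Atf4, Atf6, Ern1, Hsf1, Copa, Copb1, Uggt1, S1pr3, Hnf4a, Aars, Mirg, H19 and Jchain. All members and lists were chosen with earlier results of these data known. A fold is the ratio of mean CPM, and counts of 0 use a floor of 12 deposited counts (taken as 3 read pairs). With same-numbered libraries, deviations correlated at -0.015, -0.002 and -0.013, so the numbers were not used as pairs. Alternatives were DESeq2 1.42.0, limma 3.58.1 voom, other scalings and filters, and leaving out each library.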

Additional observations from a re-analysis of the deposited data

How the results depend on the processing

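None of the 308 called genes the text could name changed direction under the alternatives tried, and 195 of them lost their call when a 1.5-fold change was tested. The 2123 calls ran from 1298 to 1856 when 1 library was left out (656 to 1039 higher and 553 to 817 lower), and fell to 1008 at an adjusted p under 0.01 (551 higher, 457 lower) and to 283 when a 1.5-fold change was tested (212 higher, 71 lower). Under that fold test the fallen ER chaperones went from 20 to 6, the heat shock family from 17 to 2 and the ribosomal and respiratory families to 0 each; with a library left out the ER chaperones were 17 to 18. With the replicate number as a block 1702 genes were called (943 higher, 759 lower); the numbers share no known source. DESeq2 called 2705 genes, limma voom 1809, no filter 2326 and a fit of the 4 libraries alone 1807. With libraries scaled to total counts the split was 1321 higher and 784 lower, and with upper quartiles the balance turned, with 1069 and 1076, against 1165 and 958. As shares of total counts, the called-higher genes gained 36.3% (33.1% as CPM), the called-lower genes changed by -17.4% (-19.6%) and Alb by -15.1% (-17.2%). For the called genes the sign follows from how they were chosen. Each week has 2 libraries and the labels name no separate mice, so no result here speaks for variation between animals. Genes at 0 in a week are limited to 0.245 CPM at week 0 and 0.228 CPM at week 7, counting error only.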

Other observations

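Immunoglobulin genes, in no list above and picked after their values were seen, were higher at week 7. Counts are summed here over all 13 constant and 218 variable region genes in the table, of which 9 and 20 were tested. The constant region genes held 400 and 391 counts in the week 0 libraries, 1273 and 1340 in those of week 2 and 4240 and 4115 in those of week 7. Ighg1, a heavy chain of IgG, stood at 1.32 and 0.394 CPM at week 0 and 30.4 and 33.4 CPM at week 7 (adjusted p = 0.00396), and Igkc, the kappa light chain, at 2.92 and 3.50 CPM at week 0 and 36.3 and 35.9 CPM at week 7 (adjusted p = 2.08e-06). In edgeR 5 of the 9 were called higher, 3 to 4 with a library left out. Variable region genes held 51 and 75 counts in the week 0 libraries and 1046 and 898 in those of week 7, with 5 of 20 called higher (1 to 5 with a library left out). The plasma cell gene Jchain stood at 1.08 and 0 against 5.35 and 4.85 CPM and was not called (adjusted p = 0.253). Reads of these near-identical genes may be shared between members.

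Mir8114 had the largest fall among the stable calls above 5 CPM, with 597 and 589 counts in the week 0 libraries and 2 and 4 in those of week 7. RefSeq's GRCm38.p6 places 108 of the 111 bases of its hairpin inside Glul on the same strand, and Glul, glutamine synthetase, rose 4.58-fold. Reads of the hairpin and of the host gene cannot be told apart in these counts. Its mature sequence, with the seed in capitals, is shown because the host gene moved the other way.
mmu-miR-8114: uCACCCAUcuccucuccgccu

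The week 2 libraries had 13236 and 12804 counts of Xist and 0 of the Y-linked Ddx3y, against at most 15 counts of Xist and at least 1897 of Ddx3y at the other weeks. This is the pattern of female tissue at week 2 and male tissue at weeks 0 and 7. Week 2 values are therefore given only as a position, in which time and sex cannot be told apart. The week 2 libraries also entered the main fit, where they share in its estimate of spread. Of the 470 stable higher calls, the week 2 mean lay between the other weeks in 271, at or past week 7 in 130 and at or before week 0 in 69. Of the 394 stable lower calls the numbers were 159, 120 and 115. For the 20 fallen ER chaperones, week 2 was at or below week 7 in 14 and between the weeks in 6.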
